A study of Homo sapiens with 5 samples.

Results

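The respiratory chain and ATP synthase subunits examined here are 77 nuclear genes, out of 18417 genes that the array names with exactly 1 symbol. They were chosen by symbol, with earlier results of these data known. The symbols were NDUFA, NDUFB, NDUFC, NDUFS and NDUFV genes for complex I (32 genes) and SDHA to SDHD for complex II (3). UQCR genes and CYC1 stood for complex III (8), COX4 to COX8 for complex IV (17) and ATP5 genes for complex V (17). Of the symbols that fit, 2 pseudogenes, 2 genes on chromosome 18 (NDUFV2 and ATP5F1A) and the non-coding NDUFV1-DT were left out. NDUFS5, NDUFC2 and ATP5F1E shared their probe sets with other genes, and these subunits, SDHB and UQCRFS1 were not analysed here. The 77 genes had 83 probe sets, and for the 6 genes with 2 the brighter one was kept.

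RNA from 5 clones of Nalm6, a human B-cell precursor acute lymphoblastic leukaemia line, was hybridised to 1 array each. The control group was 2 clones with a nonsense shRNA, and the other group was 3 clones with a shRNA against MondoA, the glucose-responsive transcription factor encoded by MLXIP. All 5 were kept in RPMI medium with 20% fetal bovine serum, 1% glutamine and 200 mg/dl glucose. Each array is thus a different clone, and a clone's own traits cannot be told apart from the shRNA where a group holds so few. Values are RMA expression, a log2 scale on which 1 unit is a 2-fold change, and a difference is MondoA shRNA minus control.

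MLXIP itself read 6.42 on both control arrays and 6.42, 6.47 and 6.29 on MondoA shRNA arrays 1, 2 and 3. Its value was equal (6.4209) on both controls and MondoA shRNA array 1. Such equal values, described below, limit what this probe set can show of the knockdown. The groups overlapped, and the difference was -0.03 with a 95% interval from -0.21 to 0.16 (limma adjusted p = 0.959), so the second group is called the arrays labelled MondoA shRNA. The lineage label could be checked: all 8 measured B-precursor markers of 10 listed lay above the median gene level of 4.15 on every array. All 4 T-cell, 4 myeloid and 3 measured erythroid markers lay below it on every array. The arrays correlated at 0.993 to 0.998 across genes, which are not independent replicates. On bulk RNA, fewer cells with a transcript and less of it per cell cannot be told apart.

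The respiratory chain carries electrons from NADH through complex I, or from succinate through complex II, by way of ubiquinone to complex III, cytochrome c and complex IV, which reduces oxygen. Complexes I, III and IV pump protons across the inner mitochondrial membrane, and complex V, the ATP synthase, lets them return to make ATP. Most subunits are encoded in the nucleus and a small core in mitochondrial DNA, and the promoters of many nuclear subunit genes are known to bind NRF1, the ETS factor GABPA and YY1. In leukaemic lymphoblasts, oxidative phosphorylation runs beside an active glycolysis.

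Because many members were high together on 1 array, described below, the promoter of the member with the largest excess of that array over the control mean is shown for each complex. RefSeq promoter entries of GRCh38.p14 (250 bases before to 50 after the gene start) matched 64 of the 77 genes. In the sequences, written 5′ to 3′ on the gene's strand, capitals mark matches on either strand to the palindromic core of the NRF1 motif (the first capitals of SDHD), to CCGGAAG (ETS, GABPA), to the core of the YY1 motif, to CACGTG (the E-box, which MondoA with MLX recognises in pairs) or to TATAAA. Matches do not overlap in these 5 windows. COX5A is in lower case throughout, because none of the 5 motifs was found in that window.
NDUFA2 (complex I, chr5:140647581-140647880, minus strand): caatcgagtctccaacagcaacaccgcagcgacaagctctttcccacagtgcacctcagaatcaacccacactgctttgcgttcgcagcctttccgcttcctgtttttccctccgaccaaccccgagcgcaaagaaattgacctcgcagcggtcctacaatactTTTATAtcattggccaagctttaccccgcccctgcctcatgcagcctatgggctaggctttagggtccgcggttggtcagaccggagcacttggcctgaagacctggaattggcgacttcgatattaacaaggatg
SDHD (complex II, chr11:112086623-112086922, plus strand): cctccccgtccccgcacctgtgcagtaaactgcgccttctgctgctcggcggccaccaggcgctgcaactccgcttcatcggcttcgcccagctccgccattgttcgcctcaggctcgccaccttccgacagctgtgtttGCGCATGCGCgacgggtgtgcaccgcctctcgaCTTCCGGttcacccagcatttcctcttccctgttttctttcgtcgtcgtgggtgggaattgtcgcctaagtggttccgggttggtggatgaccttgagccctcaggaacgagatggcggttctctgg
UQCRH (complex III, chr1:46303448-46303747, plus strand): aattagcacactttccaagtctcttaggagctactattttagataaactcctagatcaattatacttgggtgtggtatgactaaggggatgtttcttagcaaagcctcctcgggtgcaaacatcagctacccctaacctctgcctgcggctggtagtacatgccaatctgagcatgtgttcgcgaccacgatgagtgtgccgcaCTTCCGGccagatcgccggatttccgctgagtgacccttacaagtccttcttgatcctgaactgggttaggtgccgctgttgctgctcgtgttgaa
COX5A (complex IV, chr15:74938024-74938323, minus strand): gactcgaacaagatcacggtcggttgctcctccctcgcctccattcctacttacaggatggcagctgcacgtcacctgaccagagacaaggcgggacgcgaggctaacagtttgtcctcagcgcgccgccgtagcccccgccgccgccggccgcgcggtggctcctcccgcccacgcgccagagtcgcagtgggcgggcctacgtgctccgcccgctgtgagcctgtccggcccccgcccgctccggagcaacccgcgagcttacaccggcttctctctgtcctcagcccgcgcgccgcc
ATP5PD (complex V, chr17:75046920-75047219, minus strand): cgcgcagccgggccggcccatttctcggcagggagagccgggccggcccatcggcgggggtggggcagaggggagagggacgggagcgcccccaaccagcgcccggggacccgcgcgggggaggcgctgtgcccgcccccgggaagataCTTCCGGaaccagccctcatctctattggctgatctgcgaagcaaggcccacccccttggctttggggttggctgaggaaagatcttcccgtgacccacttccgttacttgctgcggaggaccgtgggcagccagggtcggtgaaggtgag

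Counted from the gene start, the NRF1 letters of SDHD begin at position -110 and its ETS letters, on the opposite strand, at -77. The ETS letters begin at -46 in UQCRH and -101 in ATP5PD, and TATAAA at -86 in NDUFA2, all 3 on the opposite strand. Over the 64 member promoters the ETS letters were found in 19 (29.7%), against 14.6% of 14237 promoters of array genes. The NRF1 letters were in 4 (6.25%, against 1.8%): NDUFA8, NDUFB4, SDHD and ATP5F1C. The YY1 letters were in 3 (4.69%, against 1.44%), the E-box in 7 (10.9%, against 8.88%) and TATAAA in 7 (10.9%, against 9.0%). The 7 genes with an E-box (NDUFA7, NDUFA11, NDUFS7, UQCR11, ATP5MC1, ATP5ME and ATP5PB) had a median group difference of 0.06, and the 57 without one also 0.06. With and without the letters, it was 0.09 and 0.06 for ETS, 0.02 and 0.06 for NRF1, 0.01 and 0.06 for YY1, and 0.09 and 0.06 for TATAAA. Array 2 minus the control mean was 0.15 and 0.16 for the E-box, and 0.16 and 0.15 for ETS. It was 0.37 and 0.15 for NRF1, -0.0023 and 0.16 for YY1, and 0.24 and 0.15 for TATAAA. None of this was tested. Letters in a window are not binding sites, and binding was not measured.

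No subunit passed the test between the groups. At an adjusted p under 0.05, limma called 0 of the 77 members and 0 of all 18417 genes (0.0% of genes tested). At an unadjusted p under 0.05 it placed 0 members on the higher side, against 1.55% of all genes and 2.47% of those with a mean of at least 5. On the lower side it placed 2 members (2.6%), SDHA and COX7B2, against 2.18% of all genes and 3.92% of those with a mean of at least 5. The members' shares thus lay near or below the background. Fitted without moderation, 3 of all 18417 genes passed the adjusted threshold, and 1 member, COX7B2, did. COX7B2 held 1 equal value on all 3 arrays labelled MondoA shRNA, as described below, so its spread there was 0.

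By sign, more members lay above 0 than below. Of the 77, 57 had a positive difference (74.0%, against 49.1% of all genes and 52.1% of those with a mean of at least 5), 19 a negative one (24.7%, against 41.2% of all genes and 45.1% of those with a mean of at least 5) and 1, NDUFB1, none. The median difference was 0.06, against 0.00 over all genes, and members ran from -0.37 (SDHC) to 0.49 (UQCRH). By complex the medians were 0.08 for I, -0.13 for II, 0.01 for III, 0.06 for IV and 0.08 for V. With 1 array left out, the median of complex I was 0.0006 without MondoA shRNA array 2 and 0.19 without array 1. That of complex III was 0.05 without control array 1, 0.02 on leaving out control array 2 or MondoA shRNA array 1, and 0.0024 without array 3. That of complex IV was 0.03 without control array 1. That of complex V was 0.05 without MondoA shRNA array 2 and 0.12 without array 1. The members share libraries and are no replicates of each other. MondoA shRNA array 2 carried much of this: without it 45 members lay above 0 and 29 below (58.4% above, against 44.6% of all genes), and the median was 0.03.

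In 8 members (10.4%) every array labelled MondoA shRNA lay above both control arrays, against 4.85% of all genes, and 7.74% of genes with a mean of at least 5. These were NDUFA5, SDHD, COX5A, COX5B, COX8A, ATP5MF, ATP5MJ and ATP5PD. For SDHD this held on the probe set used, and on its second probe set the groups overlapped. In 3 members (3.9%) every such array lay below both controls, against 5.18% of all genes and 9.26% of genes with a mean of at least 5: NDUFV1, SDHA and COX7B2. Fewer arrays separate more easily. Each alternative count thus stands beside the share of all genes, then of those with a mean of at least 5, under the same setting. The higher count was 33 (42.9%, against 9.84% of all genes and 18.1% of those with a mean of at least 5) without MondoA shRNA array 1. It was 21 (27.3%, against 17.0%) without control array 1 and 17 (22.1%, against 16.6%) without control array 2. With each array centred on its median it was 5 (6.49%, against 5.01%). The lower count was 10 (13.0%, against 15.9%) without control array 1, 6 (7.79%, against 14.6%) without control array 2 and 7 (9.09%, against 10.4%) with MondoA shRNA array 2 removed. After another quantile normalisation it was 5 (6.49%, against 11.3%). The lower shares of the members were thus below those of all genes in these settings.

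**Figure D1:**
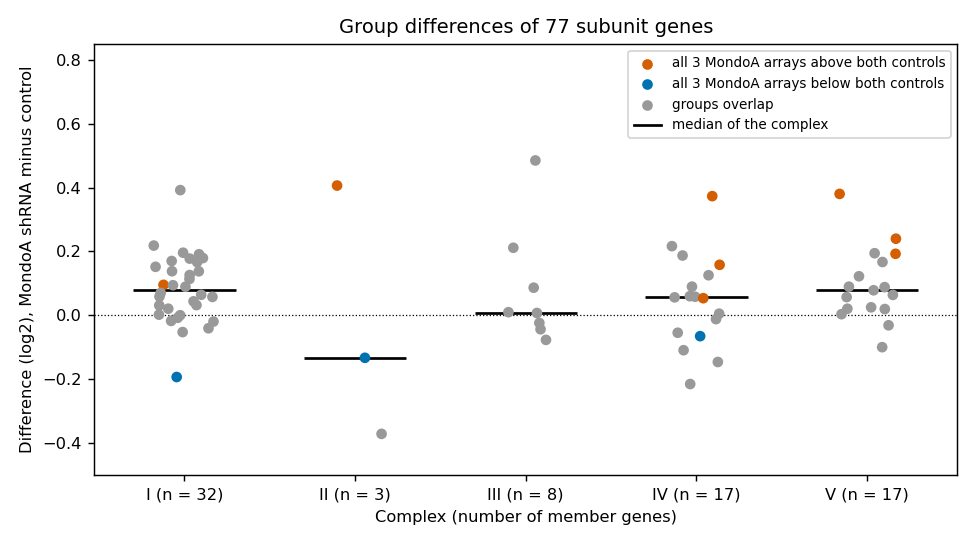
Group difference (log2, MondoA shRNA minus control, vertical axis) of each of the 77 genes by complex (horizontal axis), with points spread sideways for legibility, a bar at the median of each complex, and colour for genes whose groups do not overlap. Complexes I and V have medians of 0.08, and the 3 complex II genes scatter from -0.37 to 0.41.

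The 3 arrays labelled MondoA shRNA did not move together. Against the control mean, the members' median was -0.01 on array 1, 0.15 on array 2 and 0.05 on array 3. Array 2 was the highest of the 5 arrays in 39 members (50.6%, against 23.6% of all genes), and array 1 the lowest in 28 (36.4%, against 22.2%). Array 2 read at least 0.2 above the control mean in 32 of the 77 members. Of all 18417 genes 2685 did so, and of the 7450 with a mean of at least 5, 2084. It read at least 0.2 below that mean in 1 member, COX7A2, against 1497 of all genes and 794 of the brighter ones.

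Bright genes in general were also high on array 2 and low on array 1, and 64 of the 77 members have a mean of at least 5. Among such genes, array 2 was highest in 36 of 64 members (56.2%) and in 40.1% of all, and array 1 was lowest in 26 of 64 members (40.6%) and in 38.9% of all. For the 17 members with a mean between 8 and 9, the median deviation of array 2 from the 5-array mean was 0.25, against 0.10 for all 775 genes of that level. For the 22 members between 7 and 8 it was 0.12, against 0.06 for 1644 genes. On array 1 the values at these levels were close: -0.09 against -0.10, and -0.07 against -0.08. The part of array quality, or of other traits of this clone, in the array 2 values was not tested.

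**Figure D2:**
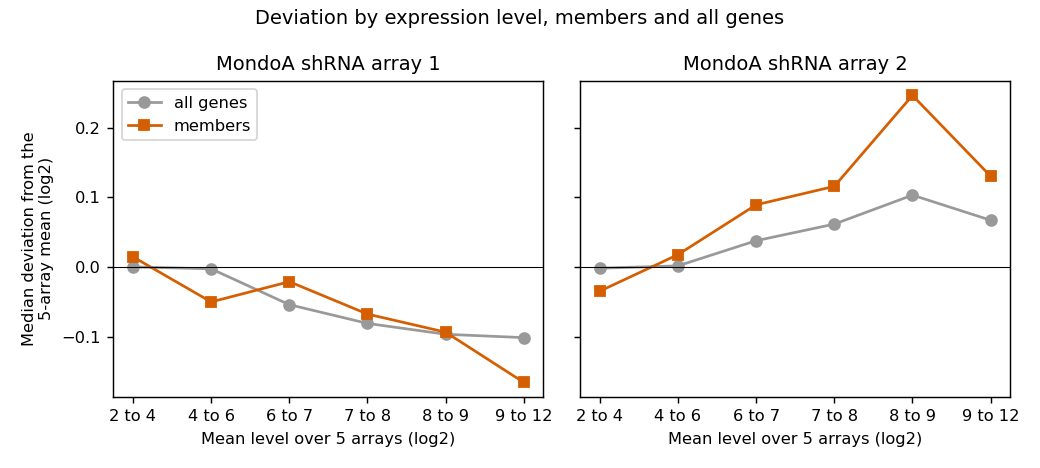
Median deviation from the 5-array mean (log2, vertical axis) on MondoA shRNA arrays 1 (left) and 2 (right) for members and for all genes, in bands of mean expression (horizontal axis). On array 2 the members lie above all genes in every band from 4 upwards, with 0.25 against 0.10 between 8 and 9, and on array 1 the lines cross.

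By complex, the median deviation of array 2 from the 5-array mean was 0.17 in complex I and 0.12 in complex V. It was 0.34 over the 3 genes of complex II, and 0.03 in complex III and 0.04 in complex IV. Array 1 stood at -0.10 in complex I, -0.04 in II, -0.04 in III, 0.00 in IV and -0.07 in V. Array 3 stood at 0.00 in complex I, -0.07 in II, 0.02 in III, 0.02 in IV and 0.04 in V. Control arrays 1 and 2 stood at -0.03 and -0.06 in complex I, 0.12 and 0.04 in II, 0.01 and -0.05 in III, -0.04 and -0.01 in IV, and -0.02 and -0.05 in V. In complex IV, the 11 genes with a mean of at least 5 had a median of 0.13 on array 2, so the low value for the whole complex includes its 6 dimmer genes. As means over members, array 2 stood at 0.16 in complex III and 0.16 in complex V, so the low median of complex III did not hold as a mean. Differences between complexes were not tested.

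**Figure D3:**
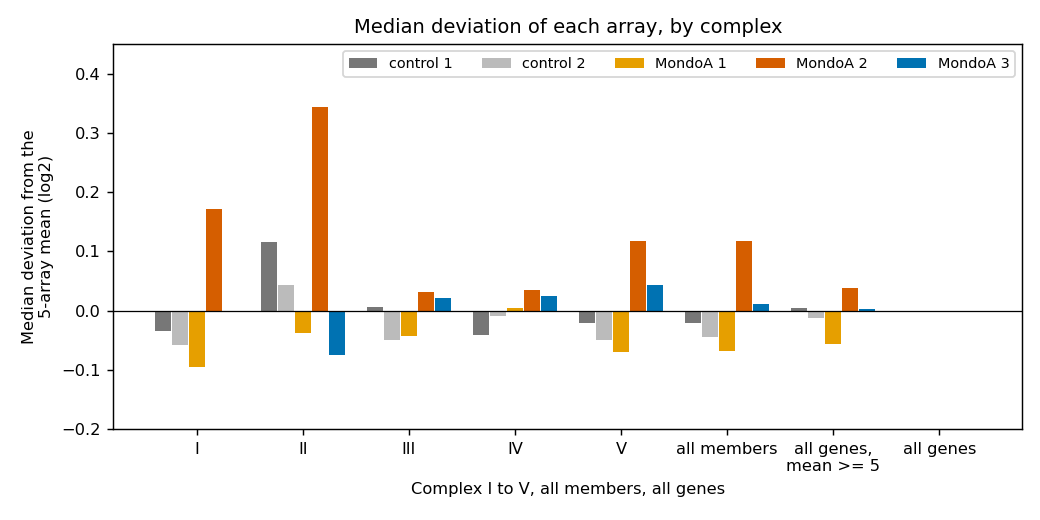
Median deviation from the 5-array mean (log2, bars from 0) on each of the 5 arrays, for complexes I to V, for all 77 members, and for all genes with and without a mean of at least 5. MondoA shRNA array 2 is the highest array in each complex, from 0.03 in complex III to 0.34 in complex II, the medians of all genes lie within 0.01 of 0, and those of genes with a mean of at least 5 run from -0.06 to 0.04.

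**Figure D4:**
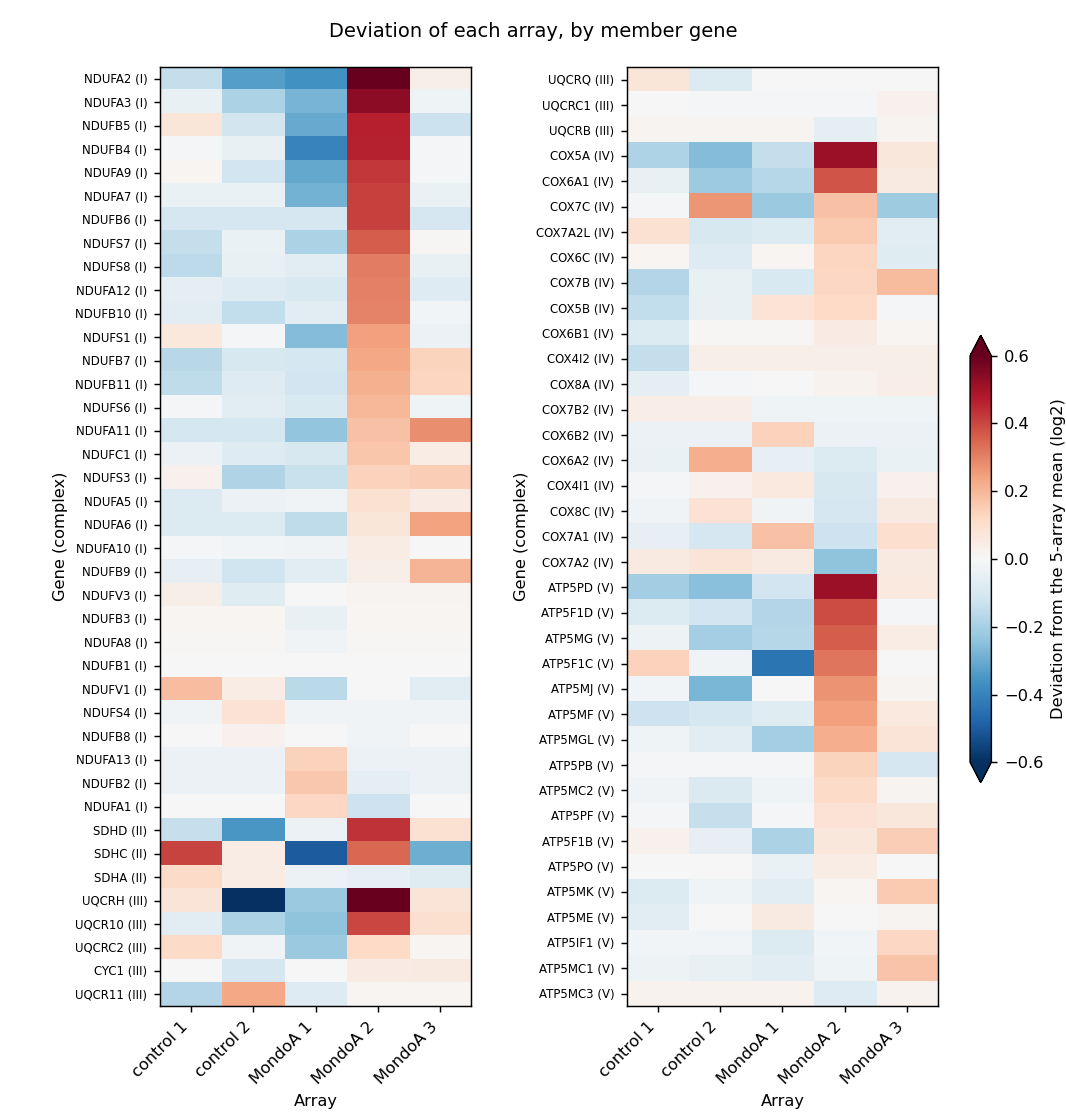
Deviation of each array (columns) from the 5-array mean (log2, colour scale limited to -0.6 to 0.6) for the 77 genes (rows), ordered by complex and, within it, by MondoA shRNA array 2. The red column of array 2 spans the 18 complex I (56.2%) and 11 complex V genes (64.7%) that are highest there, against 23.6% of all genes. Array 1 is lowest in 17 (53.1%) and 7 (41.2%) genes of these complexes, against 22.2% of all genes. Among genes with a mean of at least 5, the shares of all genes are 40.1% and 38.9%.

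Complex I, the NADH dehydrogenase, had 25 members above 0 (78.1%, against 49.1% of all genes) and 6 below (18.8%, against 41.2%). Its largest difference was in NDUFA2, an accessory subunit, which read 7.15 and 6.97 on control arrays 1 and 2 and 6.93, 8.10 and 7.33 on MondoA shRNA arrays 1, 2 and 3. The groups overlapped, since array 1 lay below both controls while array 2 lay 1.04 above their mean. The difference was 0.39 ± 0.41 (SE; 95% interval -0.80 to 1.59, limma adjusted p = 0.833), 0.07 without array 2 and 0.65 without array 1. NDUFB7, an accessory subunit of the membrane arm, read 7.46 and 7.53 in controls and 7.52, 7.86 and 7.76 in the arrays labelled MondoA shRNA. Here array 1 lay between the controls and the other 2 above them, a difference of 0.22 (limma adjusted p = 0.833).

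Array 2 was the highest of the 5 in 18 complex I genes (56.2%, against 23.6% of all genes and 40.1% of those with a mean of at least 5). It was the lowest in 3, which were NDUFA1, NDUFB2 and NDUFB8. NDUFA3, a small membrane-arm subunit, read 8.61 and 8.47 in controls and 8.38, 9.19 and 8.63 on MondoA shRNA arrays 1 to 3. NDUFB4 read 8.02 and 7.99, then 7.63, 8.49 and 8.02. NDUFA9, which holds a bound NADPH at the junction of the arms, read 8.19 and 8.07, then 7.87, 8.61 and 8.17. In all 3 genes array 1 was the lowest of the 5 and array 2 the highest, with controls between. NDUFB5, NDUFA7, NDUFA12, NDUFB10 and the core subunits NDUFS7 and NDUFS8 also had array 2 highest. Of the 32 complex I genes, 18 were at least 0.2 above the control mean there, against 2685 of all 18417 genes. Among the 7450 genes with a mean of at least 5, it was 2084.

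Between them, the core subunits of the peripheral arm carry the flavin and the iron-sulfur clusters that pass electrons from NADH to ubiquinone, and 5 of them are among the 77 genes. NDUFV1, which binds NADH and the flavin, read 9.60 and 9.46 in controls and 9.25, 9.41 and 9.35 in the arrays labelled MondoA shRNA. All 3 lay below both controls, a difference of -0.19 ± 0.07 (SE; 95% interval -0.41 to 0.02, limma adjusted p = 0.833), or -0.12 without control array 1. The iron-sulfur subunit NDUFS1 differed by -0.04 and NDUFS3 by 0.13, and NDUFS7 and NDUFS8, which hold clusters near the quinone site, by 0.15 and 0.17. All 4 overlapped between the groups, so the core subunits went both ways.

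NDUFA5, a subunit of the peripheral arm, was the 1 member of the complex with every array labelled MondoA shRNA above both controls. It read 6.71 and 6.75, then 6.76, 6.88 and 6.83, a difference of 0.10 with array 1 close to the upper control. NDUFS4, an accessory subunit known from inherited complex I deficiency, read 3.46 on 4 arrays and 3.56 on control array 2. That repeated value was held by 111 to 148 probe sets on each array, so its difference of -0.05 rests on 1 array. Its other probe set read 2.48 on all 5.

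Complex II, succinate dehydrogenase, also works in the citric acid cycle, and its 3 measured genes went different ways. SDHA, the flavoprotein that oxidises succinate, read 9.93 and 9.86 in controls and 9.78, 9.77 and 9.74 in the arrays labelled MondoA shRNA. The 3 clones lay close together and below both controls. The difference was -0.13 ± 0.03 (SE; 95% interval -0.22 to -0.05), with an unadjusted p of 0.0124 and an adjusted p of 0.833 in limma, and it ran from -0.17 to -0.10 with 1 array left out.

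SDHD, a membrane anchor of the complex, read 8.43 and 8.22 in controls and 8.54, 9.01 and 8.66 in the arrays labelled MondoA shRNA, all 3 above both controls. The difference was 0.41 ± 0.18 (SE; 95% interval -0.12 to 0.93, limma adjusted p = 0.833). The second SDHD probe set read 5.56 and 5.89, then 5.72, 6.21 and 5.89, a difference of 0.21 in which the groups overlapped. SDHC, the other anchor, read 8.38 and 8.02 in controls and 7.48, 8.32 and 7.69 on MondoA shRNA arrays 1 to 3. Arrays 1 and 3 lay below both controls and array 2 between them, a difference of -0.37 ± 0.32 (SE, limma adjusted p = 0.833). Leaving out control array 1 gave -0.19, leaving out MondoA shRNA array 1 gave -0.20 and leaving out array 2 gave -0.62. The second SDHC probe set gave -0.21, with array 2 above both controls at 5.58. SDHC and SDHD, which sit together in the membrane, thus had opposite signs, while SDHC on array 2 stood apart from the other 2 clones on both probe sets. Which of its 2 probe sets better reads each of these genes was not tested, and the dimmer ones gave smaller differences.

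**Figure D5:**
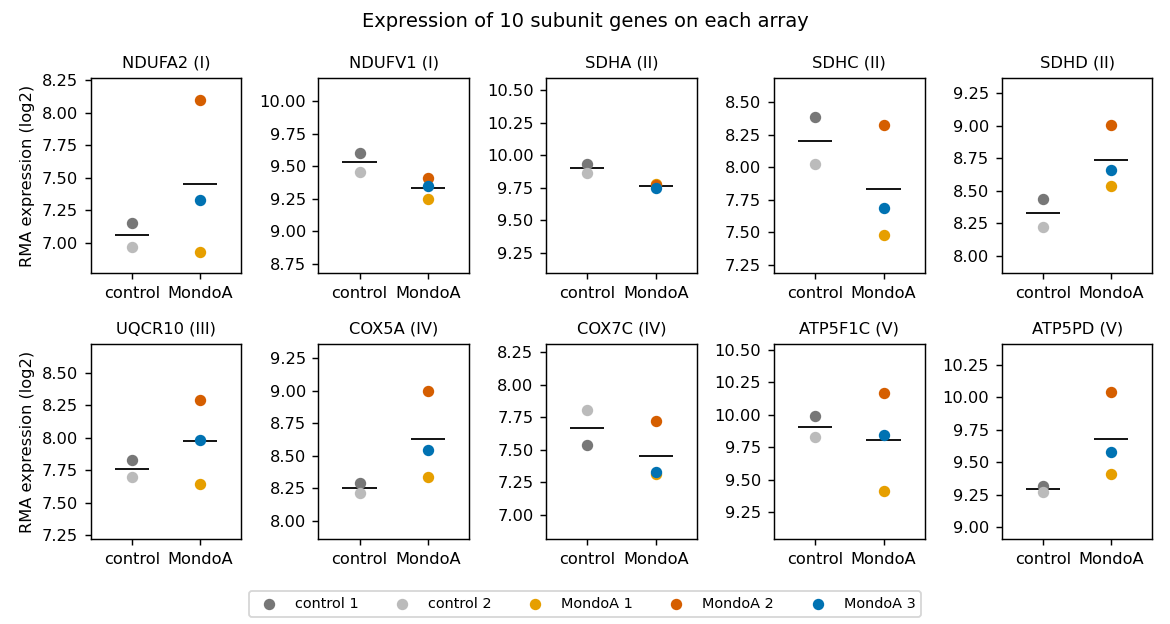
RMA expression (log2, vertical axis, each panel spanning 1.5 units) of 10 subunit genes in control and MondoA shRNA arrays, with a point for each array and a bar at the group mean. On the probe set used for each gene, SDHA and NDUFV1 have all 3 MondoA shRNA points below both controls, and SDHD, COX5A and ATP5PD have all 3 above.

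Complex III, the cytochrome bc1 complex, passes electrons from ubiquinol to cytochrome c. Of its 8 genes, 5 lay above 0 (62.5%, against 49.1% of all genes) and 3 below (37.5%, against 41.2%). UQCRH, the acidic hinge protein, had the largest difference of all 77 members. It read 4.71 and 3.97 in controls and 4.41, 5.35 and 4.71 on MondoA shRNA arrays 1 to 3, with array 3 equal to control array 1. The controls differed by 0.74 between themselves, and the difference of 0.49 ± 0.42 (SE, limma adjusted p = 0.833) ran from 0.12 to 0.85 with 1 array left out. UQCR10, a small subunit, read 7.83 and 7.69, then 7.65, 8.29 and 7.98, a difference of 0.21 (limma adjusted p = 0.833) that was 0.05 without array 2 and 0.37 without array 1. It again had array 1 lowest and array 2 highest.

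The lowest differences of complex III were small. UQCRC2, a core protein, read 10.08 and 9.95 in controls and 9.75, 10.09 and 9.98 in the arrays labelled MondoA shRNA, a difference of -0.08 that was 0.02 without array 1. UQCR11 read 5.69 and 6.10, then 5.79, 5.88 and 5.88, so all 3 clones lay between the controls. CYC1, the cytochrome c1 that hands electrons on, differed by 0.09, UQCRC1 by 0.01 and UQCRQ by 0.01. UQCRB was listed at 2.55 on 4 arrays, a value that 371 to 431 probe sets hold on each array, and MondoA shRNA array 2 alone differed, at 2.48.

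Complex IV, cytochrome c oxidase, had 11 members above 0 (64.7%, against 49.1% of all genes) and 6 below (35.3%, against 41.2%). COX5A, a nuclear subunit on the matrix side, read 8.29 and 8.22 in controls and 8.34, 8.998 and 8.55 on MondoA shRNA arrays 1 to 3. All 3 lay above both controls, but array 1 by little, and the difference was 0.37 ± 0.23 (SE; 95% interval -0.31 to 1.05, limma adjusted p = 0.833), or 0.19 without array 2. COX5B, which binds zinc, read 6.02 and 6.12, then 6.24, 6.28 and 6.15, a difference of 0.16 ± 0.06 (SE, limma adjusted p = 0.833). COX8A differed by 0.05 without overlap, from 8.25 and 8.30 to 8.31, 8.33 and 8.35.

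In the other direction, COX7C, a small membrane subunit, read 7.54 and 7.80 in controls and 7.32, 7.72 and 7.33 in the arrays labelled MondoA shRNA. Array 2 lay between the controls and the other 2 below both, a difference of -0.22 (limma adjusted p = 0.833). Leaving out control array 2 gave -0.08, and leaving out control array 1 or MondoA shRNA array 2 gave -0.35. COX7A2L, which takes part in joining complexes III and IV into supercomplexes, differed by 0.00.

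Several complex IV subunits exist in a widespread form and a tissue-restricted form. COX6A1, the widespread form, read 9.86 and 9.69, then 9.74, 10.28 and 9.96, a difference of 0.22 that was 0.07 on leaving out array 2 and 0.13 on leaving out control array 2, and was 0.34 on leaving out MondoA shRNA array 1. Its second probe set, on the same arrays, gave 0.22. The heart and muscle form COX6A2 read 4.801 and 5.06, then 4.79, 4.76 and 4.801, a difference of -0.15 that was -0.02 without control array 2. COX4I1 differed by -0.01 and its hypoxia-responsive relative COX4I2 by 0.09, the latter with 3.21 on 4 arrays and 3.04 on control array 1. COX7A2 was 7.12 to 7.14 on 4 arrays and 6.82 on MondoA shRNA array 2, and so went opposite to most members there. The muscle form COX7A1, with a mean of 3.04, below the median gene level of 4.15, differed by 0.13. COX6B1 differed by 0.06. The testis form COX6B2 was 2.40 on 4 arrays, a value held by 161 to 258 probe sets on each array, and 2.57 on MondoA shRNA array 1. Its difference of 0.06 thus rests on that array. COX8C, also dim with a mean of 2.50, differed by -0.05. COX7B differed by 0.19 (5.47 and 5.60, then 5.55, 5.77 and 5.84).

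COX7B2, a testis form, had the lowest unadjusted p of all members (0.000639, limma adjusted p = 0.435), yet its difference was only -0.07. It read 2.38 on both control arrays and 2.32 on all 3 arrays labelled MondoA shRNA. The latter value was held by 500 to 527 probe sets on every array. The SD was thus 0 among the 3 clones and 0.001 between the controls.

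Under their current names, COXFA4 and COXFA4L2 (formerly NDUFA4 and NDUFA4L2) lie outside the member list. COXFA4, once counted in complex I and now placed with complex IV, differed by 0.09, and COXFA4L2, a hypoxia-induced relative, was equal at 4.44 on all 5 arrays.

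Complex V had the most even sign, with 15 of 17 members above 0 (88.2%, against 49.1% of all genes and 52.1% of those with a mean of at least 5). The other 2 lay below (11.8%, against 41.2% and 45.1%). ATP5PD, subunit d of the peripheral stalk that holds the catalytic head still, read 9.32 and 9.27 in controls and 9.41, 10.04 and 9.58 on MondoA shRNA arrays 1 to 3. All 3 lay above both controls, and the difference was 0.38 ± 0.22 (SE; 95% interval -0.27 to 1.03, limma adjusted p = 0.833), or 0.20 without array 2. ATP5MJ, a small membrane subunit, read 7.16 and 6.90, then 7.17, 7.44 and 7.19, a difference of 0.24 in which arrays 1 and 3 lay just above control array 1. Leaving out control array 2 gave 0.11, leaving out MondoA shRNA array 2 gave 0.15 and leaving out control array 1 gave 0.37. ATP5MF, subunit f, read 8.14 and 8.15, then 8.19, 8.51 and 8.32, a difference of 0.19 without overlap. All 3 had array 2 highest.

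The rotor and catalytic head gave both signs. ATP5F1B, the catalytic beta subunit, read 11.69 and 11.62, then 11.48, 11.74 and 11.82, a difference of 0.02. The alpha subunit ATP5F1A, left out of the members as a chromosome 18 gene, read 10.58 and 10.48, then 9.96, 9.96 and 10.11. All 3 arrays labelled MondoA shRNA lay below both controls there, a difference of -0.52. ATP5F1C, the central stalk subunit gamma, read 9.99 and 9.83, then 9.41, 10.17 and 9.85. Its clones lay below, above and between the controls, and the difference of -0.10 was 0.10 without array 1. ATP5F1D, subunit delta of the same stalk, had array 2 highest at 8.89 and differed by 0.17. The ring of c subunits is encoded by 3 genes with different leader peptides. ATP5MC1 differed by 0.06, ATP5MC2 by 0.09 and ATP5MC3 by -0.03, the last with 3 arrays equal at 3.91 and MondoA shRNA array 2 lowest at 3.81.

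Other stalk subunits were nearly level, ATP5PB at 0.02 and ATP5PO at 0.00, while ATP5PF stood at 0.12. ATP5IF1, which is no subunit but the inhibitor that stops the enzyme from running backwards, differed by 0.02. ATP5MK, a membrane subunit, differed by 0.09 on the probe set used and by -0.02 on its other one. Of the 17 genes, 14 lay above both controls on array 3 (82.4%, against 23.2% of all genes and 31.6% of those with a mean of at least 5). On array 2 it was also 14 (82.4%, against 28.1% and 46.6%), and on array 1 it was 4 (23.5%, against 23.7% and 17.7%).

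Equal values limit what these arrays can show for some subunits. In 20 members (26.0%) at least 3 arrays held the same value, against 54.0% of all genes and 31.2% of those with a mean of at least 5. NDUFB1 read 5.90 on all 5 arrays, the 1 such member (1.3%, against 9.7% of all genes and 2.79% of those with a mean of at least 5). NDUFA8, NDUFA13, NDUFB3 and NDUFB6 each had 4 equal arrays, as did NDUFS4, UQCRB, COX4I2 and COX6B2 above. The differences of all these genes rest on the remaining array.

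Genes that build the complexes were taken from lists of their own. Of 44 measured assembly factors, 27 lay above 0 and 16 below (49.1% and 41.2% of all genes), with a median of 0.02. At an unadjusted p under 0.05 in limma, 3 were higher and 0 lower, against 1.55% and 2.18% of all genes, and 0 passed the adjusted threshold. COX14, which acts early in complex IV assembly, read 5.04 and 5.11 in controls and 5.30 on all 3 arrays labelled MondoA shRNA. The difference was 0.23 (unadjusted p = 0.00102 in limma, adjusted p = 0.435). Its 3 equal values (5.3031) leave no spread in that group, which lowers the p-value, as for COX7B2. UQCC2, needed for cytochrome b and complex III, read 6.60 and 6.61, then 6.83, 7.12 and 6.95, a difference of 0.36 (unadjusted p = 0.0286 in limma, adjusted p = 0.833). ECSIT, a complex I assembly protein, differed by 0.18 (unadjusted p = 0.0181 in limma, adjusted p = 0.833). Array 2 was highest in 28 of the 44, against 23.6% of all genes and 40.1% of those with a mean of at least 5.

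Among 21 genes of electron carriers and ubiquinone synthesis, 14 lay above 0 and 7 below (49.1% and 41.2% of all genes), with 1 higher and 0 lower at that unadjusted p (1.55% and 2.18% of all genes). PDSS1, which makes the side chain of ubiquinone, read 6.99 and 7.05, then 7.11, 7.27 and 7.22, a difference of 0.18 (unadjusted p = 0.0408 in limma, adjusted p = 0.833). CYCS, cytochrome c, differed by 0.06. Of 12 regulators of mitochondrial gene expression, 7 lay above 0 and 4 below, with 1 higher and 0 lower, against the same shares of all genes. TFAM, which packages mitochondrial DNA, differed by 0.17 and the mitochondrial transcription factor TFB2M by 0.41, both with all arrays labelled MondoA shRNA above both controls (limma adjusted p = 0.833 for each). Of the 12 regulators 3 separated in that way, against 4.85% of all genes and 7.74% of those with a mean of at least 5. On the lower side 0 did, against 5.18% and 9.26%. PPRC1, a coactivator of the PGC-1 family, read 6.29 and 6.34, then 6.49, 6.41 and 6.47, a difference of 0.14 (unadjusted p = 0.0159 in limma, adjusted p = 0.833). NRF1, whose letters appear in the SDHD promoter above, differed by 0.05, GABPA by 0.07 and YY1 by 0.07. The 4 regulators below 0 were GABPB1 (-0.23), TFB1M (-0.06), POLRMT (-0.05) and PPARGC1A (-0.04). None of the 13 mitochondrially encoded subunits was matched to a probe set, and those were not analysed here.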

How the data were processed

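RNA (200 ng per clone) was labelled with biotin and measured on 5 Affymetrix whole-transcript arrays, 2 control and 3 MondoA shRNA. The values deposited by the authors are log2 expression per probe set, made with RMA in Affymetrix Expression Console 1.1 per the submitters' processing notes. The base of the logarithm is not given in the sources used here and was taken as 2. RMA equalises array distributions and summarises by median polish, which can give equal values across arrays. No detection calls, intensities or array dates were used here. The number of arrays limits the precision.

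Of 33297 probe sets, 19460 had 1 symbol, 1754 several and 12083 none in the platform annotation. The probe set with the highest mean was kept per gene. All 77 members matched RefSeq (GRCh38.p14) by Entrez number, which gave chromosome and biotype. Limma 3.58.1 in R 4.3.3 was fitted to all 18417 genes (lmFit, eBayes, two-sided, Benjamini-Hochberg over all genes, threshold 0.05, 95% intervals). The step was tested on simulated data. Nothing says the clones were handled as separate experiments, so p-values measure the spread between these clones. Members and lists were chosen with earlier results of these data known. Separation of groups means all arrays of one group beyond all of the other.

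Genes named by rule were the 2 highest and 2 lowest differences in complexes I, III, IV and V, members at unadjusted p under 0.05, all of complex II, alternative forms with their usual form, the widest range per complex, members whose probe sets disagree in sign, MLXIP, and up to 3 genes per pathway list at unadjusted p under 0.05 by lowest p. Other genes in the text were named after their values were seen. Alternatives left out arrays, changed normalisation, filter, probe set, variance model (array weights with statmod 1.5.0) or member list, and blocked on replicate number.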

Additional observations from a re-analysis of the deposited data

How the results depend on the processing

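With 1 array left out, the genes past the adjusted threshold in limma ran from 0 (any MondoA shRNA array) to 752 (control array 1), with 454 without control array 2. Another quantile normalisation gave 2, median centring 2 and the fit without moderation 3. Members past it were 3 without control array 1 and 2 without control array 2, among them NDUFS4, COX7B2 and COX4I2, which have 3 equal MondoA shRNA values. A lone control is assumed there to vary like the other group. Members higher at unadjusted p under 0.05 numbered 1 to 5 with 1 array left out (5 without MondoA shRNA array 1, where 2.11% of all genes were), 4 quantile normalised again (2.38%), 3 with array weights (3.15%) and 1 with the replicate block (1.75%). Lower ones numbered 2 to 5 (5 without control array 1, against 6.19% of all genes), 1 with a mean of at least 5 (4.34%) and 1 with the replicate block (1.84%). Members separated on the higher side numbered 8 to 33 with 1 array left out. The background was 6.48% to 17.0% of all genes and 9.48% to 22.8% of those with a mean of at least 5. Centred, those members numbered 5 (5.01% and 7.54%). Members separated on the lower side numbered 3 to 10 (6.58% to 15.9%, and 10.1% to 22.6%) and 5 quantile normalised again (11.3% and 16.7%). The complex IV median was 0.0307 to 0.0657 with 1 array left out, 0.0294 quantile normalised again and 0.0221 with array weights. That of complex III was -0.0025 quantile normalised again. The complex I median ran from 0.0006 without MondoA shRNA array 2 to 0.19 without array 1. Members above 0 numbered 45 to 56 with 1 array left out, an alternative chosen after seeing the data, as were centring (54), quantile normalisation (55) and the filter (51) for that count.

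As means over members, array deviations in complex III were -0.094 and 0.16 on MondoA shRNA arrays 1 and 2 and -0.10 on control array 2, and in complex IV -0.014 and 0.0588 on MondoA shRNA arrays 1 and 2. Complex IV genes with a mean of at least 5 stood at 0.13 on MondoA shRNA array 2 and -0.0442 on control array 2. Of 321 alternative values for 30 named members, 7 changed sign. With 1 array left out, ATP5F1C ran from -0.28 to 0.10, ATP5MC3 from -0.0478 to 0.0006, COX4I1 from -0.0433 to 0.0336 (0.0091 with array weights), UQCR11 from -0.25 to 0.16 and UQCRC2 from -0.15 to 0.0188. Of the 30, on the probe set used, NDUFB7, SDHA, SDHD and COX7B2 stayed within 1.5 times their difference with any 1 array left out. The others did not. The cause was not tested. Replicate numbers 1 and 2 occur in both groups, but nothing links the clones that share one, and their deviations correlated at -0.29 and -0.23 across genes. The replicate block gives the differences seen without MondoA shRNA array 3 (median over all members 0.07) and called 0 members at the adjusted threshold.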
